A study of Mus musculus with 2 samples.

Results

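Mir126a and Mir126b are microRNA genes that lie on top of each other on opposite strands of mouse chromosome 2, inside the gene Egfl7. They were taken by name from the GENCODE M21 annotation and are 2 of the 2202 microRNA genes in the deposited count tables. The tables come from microRNA-seq, the sequencing of short RNA, of left cerebral cortex from 2 female mice at 36 days of age. Both mice were of the hybrid strain B6CASTF1/J, no treatment is named for either, and the labels give them as biological replicates 2 (mouse 2) and 1 (mouse 1) of a single group under a shared donor code. The design therefore holds no comparison of conditions. The data describe how strongly each strand of the locus was read and how far the mice differed.

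A microRNA is cut from a hairpin RNA as a short single strand that guides the silencing complex to messenger RNAs, mostly by pairing through its seed, bases 2 to 8 from the 5′ end. Egfl7 encodes a protein that endothelial cells, the lining of blood vessels, secrete into the vessel matrix, and miR-126 is a standard marker of endothelium. In mouse and zebrafish, miR-126 is known to repress inhibitors of VEGF signalling, among them Spred1 and Pik3r2, and its loss makes vessels leaky. Platelets and blood stem cells also carry it. In cortex it is therefore mainly regarded as a signal of vessels rather than of neurons.

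The locus was read on the mm10 assembly (GRCm38). Mir126a (ENSMUSG00000065540) spans chr2:26591357-26591429 on the plus strand, 73 bases. Mir126b (ENSMUSG00000105799) spans chr2:26591363-26591420 on the minus strand, 58 bases, all of them inside Mir126a. The annotation leaves 6 bases of Mir126a free on the left and 9 on the right. Egfl7 runs on the same strand as Mir126a, at chr2:26580014-26593120. Of its 19 annotated transcripts, 9 span the hairpin. In 8 of these Mir126a is intronic. In 4 of them it is intron 7 that holds it. The remaining transcript, annotated as a retained intron, has it in exon 4. The read-through gene Gm20532 also holds it in intron 3. Mir126b had no host on its own strand: 0 other genes on the minus strand hold it, and the nearest annotated minus-strand neighbour examined, the lipid enzyme gene Agpat2, ends 1628 bases beyond Mir126a.

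The hairpins of both strands are shown, since the reads were assigned by strand. They are from RefSeq on GRCm38.p6 and are identical to the GENCODE transcripts. Capitals mark miR-126a-3p in the first and miR-126b-3p in the second.
Mir126a hairpin: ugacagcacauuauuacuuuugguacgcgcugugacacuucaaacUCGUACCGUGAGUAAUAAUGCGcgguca
Mir126b hairpin: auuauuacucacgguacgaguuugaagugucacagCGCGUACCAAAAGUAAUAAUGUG
The second is the exact reverse complement of its span of the first. Because the arms of the hairpin nearly mirror each other, the minus strand can spell out much the same letters as the plus strand. The mature forms that matched follow, with their seeds in capitals. For Mir126a only miR-126a-3p is among them. No form from the other arm of that hairpin is listed, so seeds and target matches from that arm were not examined. The counts do not separate the arms, so the share of Mir126a reads from either arm is not known.
miR-126a-3p: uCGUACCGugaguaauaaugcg
miR-126b-3p: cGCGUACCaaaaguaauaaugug
miR-126b-5p: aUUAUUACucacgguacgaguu
With miR-126b-3p moved by 1 base, 17 of 22 bases of miR-126a-3p and miR-126b-3p are identical, and their longest shared run is 10 bases. The seeds of these 3p forms therefore overlap, shifted by 1 base. miR-126b-5p is the reverse complement of miR-126a-3p over 19 bases, and the seeds of these forms are unrelated.

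Both strands were predicted to fold. RNAfold gave Mir126a 27 base pairs over its 73 bases at −31.2 kcal/mol, and Mir126b 21 base pairs over its 58 bases at −19.3 kcal/mol. Cut to the 58 bases that both share, the Mir126a strand folded at −19.4 kcal/mol, next to the value of the Mir126b strand. Per base of the annotated hairpin, Mir126a stood at −0.43 and Mir126b at −0.33 kcal/mol, against a median of −0.44 over the 324 genes that were clearly read (a mean of 10 CPM or more, the unit defined below). Over all 2202 genes the median was −0.37 kcal/mol. Of these, 641 had a lower energy per base than Mir126a and 1347 a lower one than Mir126b.

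**Figure D1:**
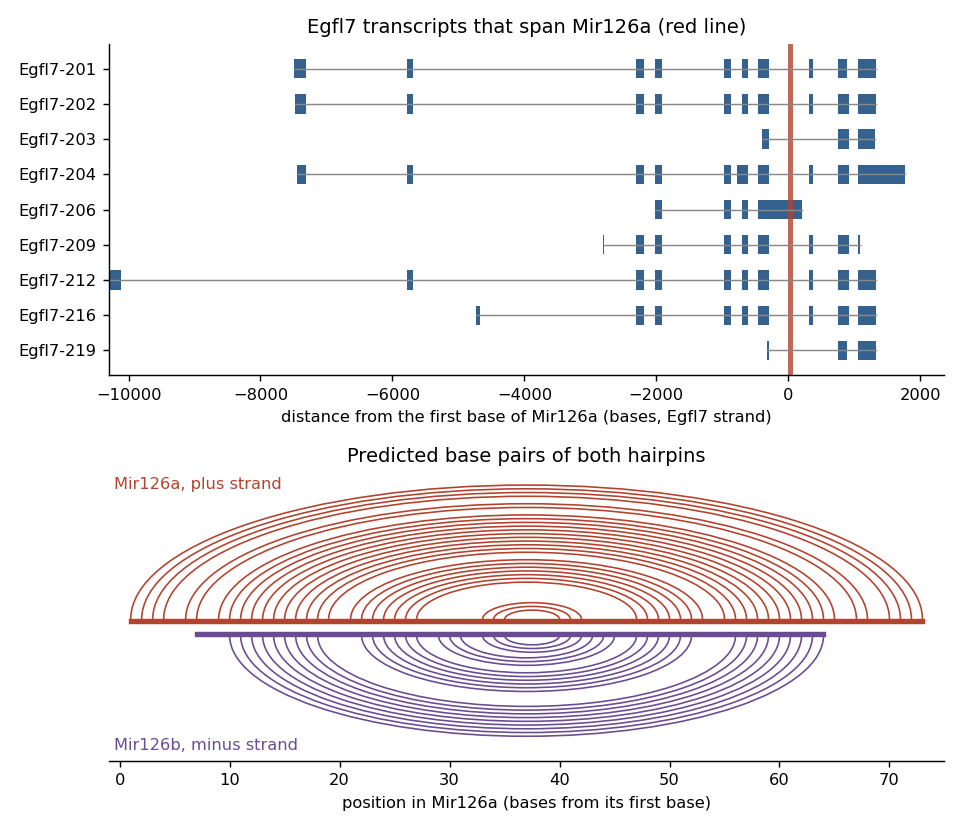
Top, exons (bars) of the 9 Egfl7 transcripts that span Mir126a (red line), by distance in bases from its first base. Bottom, arcs join the bases predicted to pair in Mir126a (27 pairs, above the line) and in Mir126b (21 pairs, below it), and both strands form a nested stem.

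All reads of the locus came from the Mir126a strand. Levels are given as CPM, the own-strand reads of a gene when all microRNA genes of that library together are set to 1000000 reads. The library totals were 1863876 reads in mouse 2 and 1930234 in mouse 1. Mir126a had 41713 own-strand reads in mouse 2 and 21766 in mouse 1. Mir126b had 0 own-strand reads in each mouse. Where no read was seen, up to 3 reads were allowed for, equal to 1.61 CPM (mouse 2) and 1.55 CPM (mouse 1). On that floor per library, Mir126a was at least 13904-fold higher than Mir126b in mouse 2 and at least 7255-fold higher in mouse 1 in read counts. Per base of the hairpin these bounds are 11047-fold in mouse 2 and 5765-fold in mouse 1. Up to 0.00719% of the locus reads in mouse 2, and up to 0.0138% in mouse 1, could thus belong to Mir126b. These bounds and all intervals here cover counting error only, since PCR copies count as reads.

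The other columns of the tables account for the same reads from the other side. Counted on the strand opposite to Mir126b, 41713 reads were found in mouse 2 and 21765 in mouse 1. The opposite strand of Mir126a had 0 reads in each mouse. In mouse 1 the opposite-strand count of Mir126b is 1 read short of the Mir126a count, as for a read that touches none of the bases of Mir126b. When strand was ignored, a read over both genes was given to neither, and Mir126a had 0 reads in mouse 2 and 1 read in mouse 1. Without strand, then, an abundant microRNA gene is lost from the table. Its missing reads made up 28.2% of the 147893 ambiguous reads of mouse 2 and 16.2% of the 134651 of mouse 1.

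**Figure D2:**
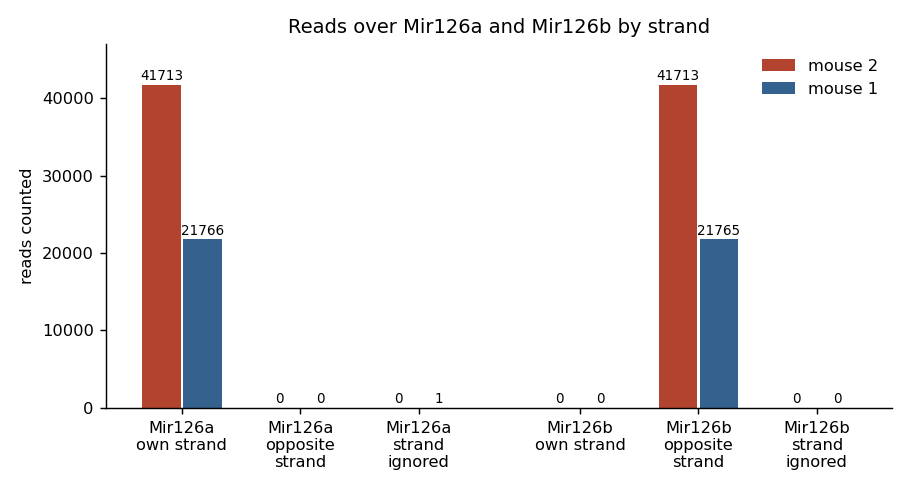
Bars give reads counted over Mir126a and Mir126b on the gene's own strand, on the opposite strand and with strand ignored, in mouse 2 and mouse 1. The 41713 (mouse 2) and 21766 (mouse 1) reads of Mir126a stand beside 41713 and 21765 opposite-strand reads of Mir126b, and both genes are at 0 or 1 where strand was ignored.

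Hairpin genes that overlap on opposite strands were not rare, and the Mir126 locus was among the most heavily read of them. The tables hold 32 such pairs of genes, and in 18 of them the gene with more reads reached 100 CPM on average. The Mir126 pair came second by level, after Mirlet7e with the annotated hairpin Gm25927 and ahead of Mir191 with Gm24083. In mouse 2 Mirlet7e had 44824 reads and Mir191 18059, and in mouse 1 they had 59351 and 14538, with 0 reads for either partner.

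Reading from a single strand was also the rule in the other pairs at 100 CPM or more. Among the 18 pairs, the gene with fewer reads was at 0 in both mice in 15, Mir126b included. The exceptions were Mir3065, opposite the myelin-linked Mir338, with 1 read in each mouse, Mir129b with 1 read in mouse 2 and 4 in mouse 1, and Mir3544 with 0 in mouse 2 and 1 in mouse 1. No pair had both genes at 10 CPM or more on average. Pairs below 100 CPM held exceptions with larger shares. Mir3074-1, opposite Mir24-1, had 11 reads in mouse 2 against 75, and 14 in mouse 1 against 84. That is 12.8% and 14.3% of the reads of both genes. Mir3107, opposite Mir486, had 0 in mouse 2 and 3 in mouse 1, and Mir1a-2, opposite Mir1b, had 1 and 0. In the rest of these pairs, the gene with fewer reads was at 0 in both mice. In 16 of the 18 pairs the better-read gene, when strand was ignored, had 0 reads in both mice; Mir126a with its single read and Mir129-2, with 4 reads in mouse 2 and 9 in mouse 1, were the others. Opposite-strand reads were almost confined to such pairs. The pairs held 147893 of them in mouse 2, against 71 over all remaining genes, and 134651 in mouse 1, against 65. Mir126b ranked second among all genes by opposite-strand reads in each mouse. These are the reads of Mir126a again, so that place follows from the level of Mir126a.

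On the shared bases, the predicted energies of the strands lay closer together in the Mir126 pair than in the other 17. The better-read gene had the lower predicted energy in 14 of the 18 pairs. For Mir126a against Mir126b the energies were −19.4 and −19.3 kcal/mol, while Mir30e and its partner Mir30f stood at −51.8 and −42.1 kcal/mol and Mirlet7e and Gm25927 at −45.3 and −42.4 kcal/mol. These are predictions from sequence alone, and no relation to the read counts was tested.

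**Figure D3:**
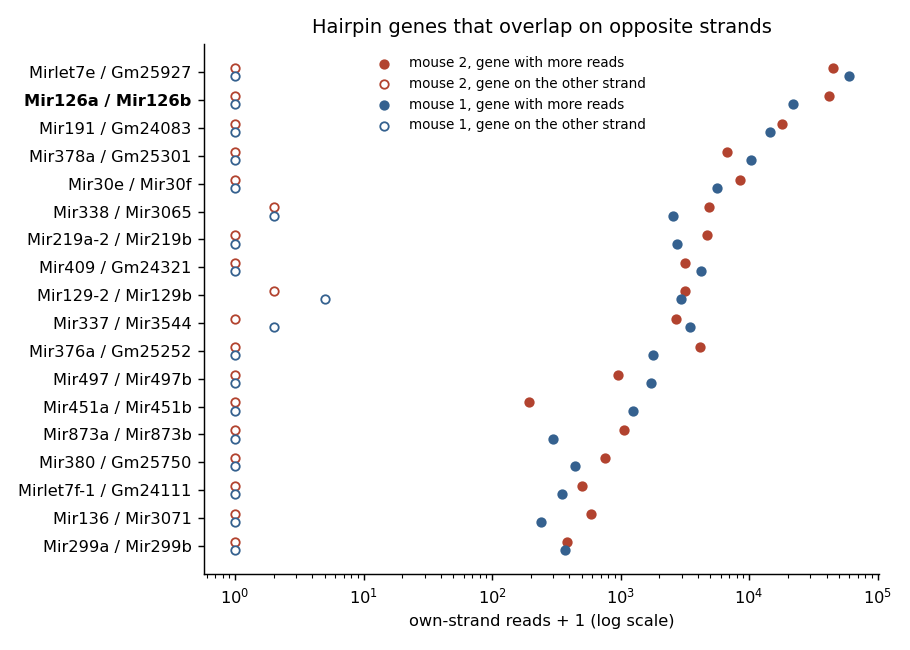
Own-strand reads plus 1 (log scale) for the 18 pairs of opposite-strand hairpin genes with 100 CPM or more in a gene, with filled points for the better-read gene and open points for its partner, mouse 2 in red and mouse 1 in blue. In 15 pairs, the Mir126 pair among them, both open points lie at 0 reads.

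Mir126a was among the most abundant microRNA genes of the cortex tables. It stood at 22380 CPM in mouse 2 (95% Clopper-Pearson interval 22168 to 22593), against 11276 CPM in mouse 1 (11128 to 11426), or 16828 ± 7851 CPM (SD, n = 2). That is 2.24% of the microRNA reads of mouse 2 and 1.13% of those of mouse 1. These shares and the order of genes cover only reads placed at a single position, since about 51.2% of mapped reads in mouse 2 and 50.9% in mouse 1 fitted several places and entered no gene's count, and genes present in several copies can be undercounted. Within that limit, Mir126a ranked 12 of 2202 by mean level, 11 in mouse 2 and 18 in mouse 1, and 13 when levels were divided by hairpin length. Of the 2202 genes, 1480 had 0 reads in both mice.

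Its exact place in the order was not fixed by 2 mice. Mir99a, of the family of Mir99 and Mir100 genes, and Mir23b stood just above. Mir99a had 28410 CPM in mouse 2, against 18771 CPM in mouse 1, and Mir23b had 15757 and 23745 CPM in the same order. Just below stood Mir128-1, a neuronal microRNA gene, with 17178 CPM in mouse 2, against 16283 CPM in mouse 1, and Mir433, with 13961 CPM in mouse 2, against 18643 CPM in mouse 1. The range of Mir126a over the mice overlapped that of each of these neighbours. In all it overlapped the ranges of 10 genes, from Mir99a at rank 10 to Mir487b at rank 21.

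**Figure D4:**
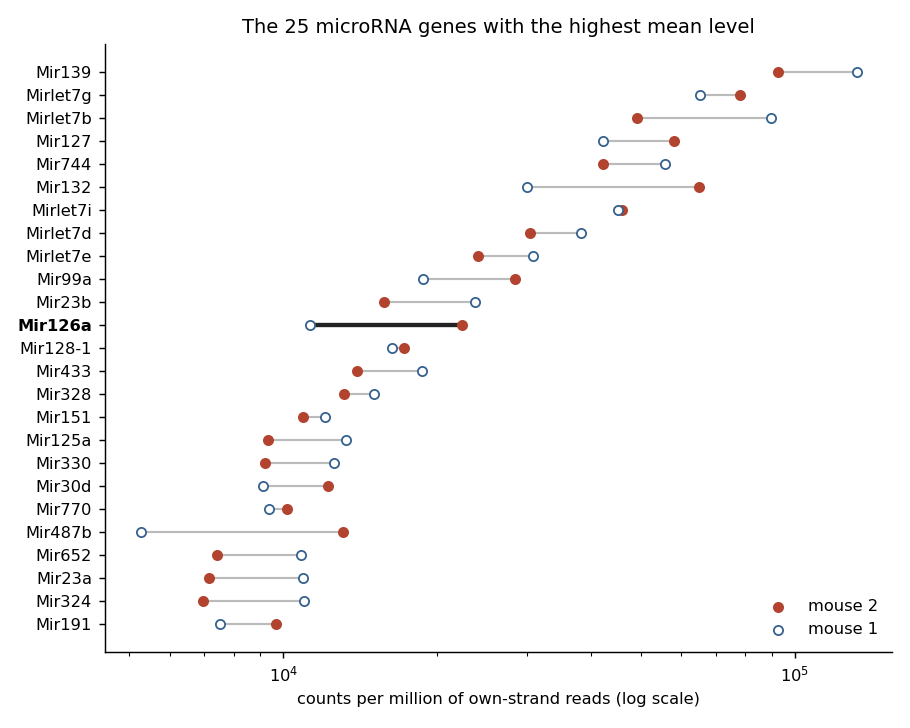
CPM (log scale) in mouse 2 (filled) and mouse 1 (open) for the 25 microRNA genes with the highest mean level, joined by a line for each gene. Mir126a (bold), at 22380 CPM in mouse 2, against 11276 CPM in mouse 1, spans the levels of several neighbours in the order.

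Mir126a was higher in mouse 2 than in mouse 1, by less than 2-fold. With library sizes adjusted by the TMM method, the log2 ratio of mouse 2 over mouse 1 was 0.88 (95% counting interval 0.86 to 0.90), a fold of 1.84, and the plain ratio of the CPM values was 1.98. Each mouse has a single library, so differences between animals and between preparations cannot be told apart, and no test between the mice was made. Differences of this size were common. Of the 324 genes with a mean level of 10 CPM or more, 18.2% lay at least 2-fold apart in either direction, 12.7% being higher in mouse 2 and 5.56% higher in mouse 1. A larger absolute log2 ratio than that of Mir126a was seen for 85 of them, and their median absolute log2 ratio was 0.54. Among the 102 genes at 1000 CPM or more, 18 had a larger absolute log2 ratio, 14 of them towards mouse 2. Among the 25 most abundant genes, 2 had a higher ratio than Mir126a, and Mirlet7b, at −0.98, had a larger absolute one. Plain library totals instead of TMM sizes add 0.11 to every log2 ratio, and the other scalings tried add 0.06, so the sign or the 2-fold call can depend on that choice for ratios up to 0.11 below 0 or below either 2-fold limit.

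Other vessel microRNA genes did not all follow. Besides its opposite-strand partner, 12 genes known from endothelium were listed with Mir126a, although several are also active in other cells, and 11 of them reached 10 CPM in both mice. Together these 12 summed to 19351 CPM in mouse 2, against 18580 CPM in mouse 1, so Mir126a alone made up 53.6% of the endothelial list in mouse 2 and 37.8% in mouse 1. Their median log2 ratio was 0.20, against −0.06 over all 324 genes, with 7 higher in mouse 2 and 5 higher in mouse 1 (8 and 4 with plain totals, where Mir24-2 changes sign). The same split over the 324 genes was 146 with a positive and 178 with a negative ratio (168 and 156 with plain totals). At least 2-fold higher in mouse 2 were 2 of the 12 (3 under the other scalings, with Mir27a), and 1 was at least 2-fold higher in mouse 1. These counts are near the background, where 12.7% of the 324 genes passed 2-fold towards mouse 2 and 5.56% towards mouse 1.

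The members of the list spread widely. Mir221, which shares a cluster with Mir222 and is known in human endothelium to act on the receptor Kit, had 5532 CPM in mouse 2, against 2971 CPM in mouse 1, a log2 ratio of 0.79. Mir222 had 3016 CPM in mouse 2, against 642 CPM in mouse 1, a log2 ratio of 2.12. Within that cluster the values thus lay on either side of Mir126a. Mir27a (0.99) and Mir10b (1.69, on 74 reads in mouse 2 and 22 in mouse 1) were also higher in mouse 2. Mir23a, from the same cluster as Mir27a, had 7150 CPM in mouse 2, against 10952 CPM in mouse 1, a log2 ratio of −0.72. Mir296, known as an angiogenic microRNA in human endothelial culture, stood at −1.32, Mir92-1 at −0.55 and Mir130a at −0.25. Mir322 (0.22), Mir10a (0.28), Mir503 (0.19) and Mir24-2 (−0.08) lay near 0. By name, Mir24-2 and Mir92-1 belong to genes present in several copies, and reads that fit several places entered no count.

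The most abundant genes of mural cells, the smooth muscle cells and pericytes around vessels, had ratios near that of Mir126a. Mir143 had 9110 CPM in mouse 2, against 4400 CPM in mouse 1, a log2 ratio of 0.94. Its cluster partner Mir145a had 355 CPM in mouse 2, against 189 CPM in mouse 1, a log2 ratio of 0.80. Mir214 stood at −0.08 on 119 reads in mouse 2 and 121 in mouse 1. The other 4 of the 7 mural genes had 0 or 1 reads, and reads that fit several places entered no count. The whole list summed to 9529 CPM in mouse 2, against 4652 CPM in mouse 1, with a median log2 ratio of 0.80 over the 3 genes at 10 CPM or more. None of these 3 was 2-fold apart with TMM sizes over genes at 10 CPM or more, while Mir143 passed 2-fold under each of the 3 other scalings, and Mir214 lay just above 0 with plain totals.

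Blood cells left in the tissue are another source of microRNAs, and genes listed as their markers lay on either side of 0. Which cells the reads of these genes came from was not measured. Of the 3 erythroid genes, 2 were at least 2-fold lower in mouse 2, while Mir486 had 47 reads in mouse 2 and 59 in mouse 1, a log2 ratio of −0.39 whose counting interval (−0.97 to 0.19) includes 0. The list summed to 153 CPM in mouse 2, against 742 CPM in mouse 1. Mir451a, which red cells carry in large amounts, had 103.0 CPM in mouse 2, against 649 CPM in mouse 1, a log2 ratio of −2.76. The 4 leukocyte and platelet genes found under their listed names summed to 1472 CPM in mouse 2, against 1640 CPM in mouse 1. The listed Mir146a was left out by its name. A gene annotated as Mir146 had 945 CPM in mouse 2, against 453 CPM in mouse 1, a log2 ratio of 0.95. Adding Mir146 would make the sum higher in mouse 2. Mir223, abundant in platelets and myeloid cells, had 22 reads in mouse 2 and 11 in mouse 1. Mir142, a gene of all blood lineages, had 255 reads in mouse 2 and 93 in mouse 1, a log2 ratio of 1.40, and Mir150, a lymphocyte gene, stood at −0.39. Mir155 had 111 reads in mouse 2 and 107 in mouse 1, a log2 ratio of −0.005. Of the 3 genes of this list at 10 CPM or more on average, 1 had a positive and 2 a negative ratio with TMM sizes. Under the other scalings, where Mir155 changes sign, these were 2 and 1. The part of blood, of vessel density and of dissection in the difference of Mir126a was not tested. In such bulk tissue, fewer cells of a type and less RNA per cell cannot be told apart.

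Of 12 listed neuronal microRNA genes, 8 reached 10 CPM in both mice. No other tissue was measured, so they do not test the tissue label. All 12 summed to 102724 CPM in mouse 2, against 62618 CPM in mouse 1, the largest part of it Mir132. Mir132 had 64860 CPM in mouse 2, against 29894 CPM in mouse 1, a log2 ratio of 1.01. Of the 8 genes, 3 had a positive and 5 a negative ratio with TMM sizes. Their median log2 ratio was −0.04, which lies just above 0 under the other scalings. The 3 copies of Mir124a, the best known neuronal microRNA, had 1 to 4 reads each, and reads that fit several places entered no count.

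**Figure D5:**
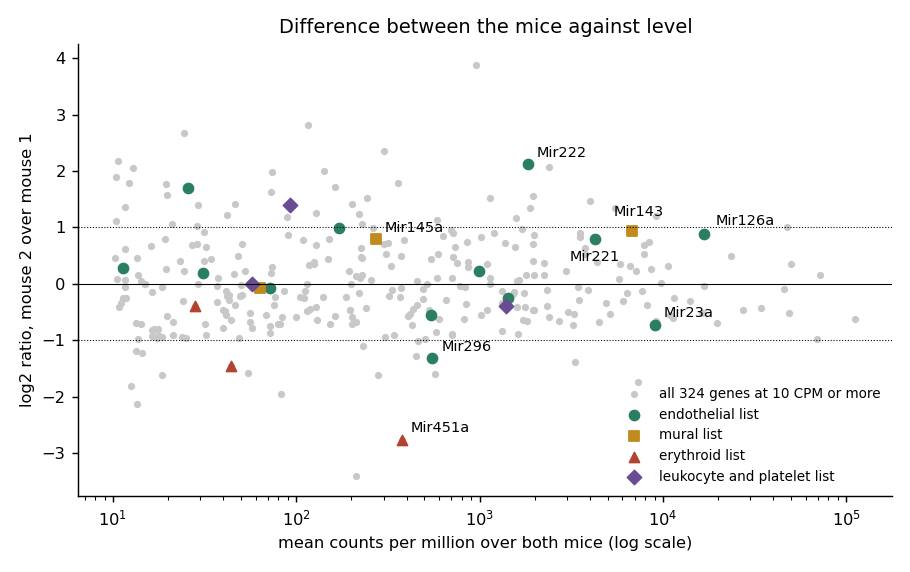
Log2 ratio of mouse 2 over mouse 1 against mean CPM (log scale) for 324 genes with a mean of at least 10 CPM, with vessel and blood lists in colour and dotted lines at 2-fold. Mir126a (0.88) lies near Mir143 and Mir145a, while Mir222 lies above it and Mir23a, Mir296 and Mir451a lie below 0.

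With 2 mice, likeness of pattern comes down to a single ratio. The 5 genes at 100 CPM or more with the log2 ratio nearest to that of Mir126a were Mir140 (0.89), Mir369 (0.89), Mir338 (0.86), Mir381 (0.91) and Mir15a (0.85). Among these, Mir338 is known from myelinating cells, and Mir369 and Mir381 lie in the imprinted Dlk1-Dio3 domain. Of the 207 genes at that level, 14 besides Mir126a lay within 0.1 of it, the 5 named included.

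The seed of miR-126a-3p has an unusual composition. It holds the dinucleotide CG at 2 places. Of 1679 mature microRNAs in the RefSeq table, 219 (13.0%) have CG in their seed at least once and 19 (1.13%) have it at 2 or more places. The seed is shared with no other mature microRNA there, and neither is that of miR-126b-3p or miR-126b-5p. No stretch of Mir126a longer than 11 bases occurs in another of the annotated hairpins, so a whole mature read would not be shared with any of them. The rest of the genome was not searched for copies.

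Matches to this seed were scarce in annotated 3′ UTRs. The complement of bases 2 to 8, CGGTACG read on the transcript strand only, was found in the longest 3′ UTR of 33 of 20998 protein-coding genes (0.157%). That was the smallest share of all 1398 different seeds in the table, whose median was 10.4%. The match of miR-126b-3p, GGTACGC, was in 98 genes (0.467%), and that of miR-126b-5p, GTAATAA, in 2360 (11.2%). The 6 letters GGTACG, which pair with bases 2 to 7 of miR-126a-3p, are contained in the miR-126b-3p match too. They were found in 2.88% of genes, and followed by A in 0.733%.

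Spred1, a repressor of Ras signalling and a known target, is shown as an example, with GGTACG in capitals. Its longest 3′ UTR of 4330 bases (on chromosome 2) has a single match, at bases 511 to 516, followed by A.
Spred1 site: atttaactaaatgtaaGGTACGaa
The longest 3′ UTRs of Pik3r2 and Vcam1, also known as targets, do not hold these 6 letters, which says only that they are not in those windows. Messenger RNA was not measured here, so no effect on any target can be read from these libraries.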

How the data were processed

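The deposited values were whole-number read counts per microRNA gene, in a table with no header and 3 count columns for each mouse. Per the submitters' README notes deposited with them, the files rest on mm10 and GENCODE M21. Which aligner, counter and trimming were used is not given in the sources used here. Unnamed columns were read as counts with strand ignored, on the gene's strand and on the opposite strand, since the second holds most assigned reads and the opposite-strand reads over overlapping genes equal the ambiguous reads of the first. A count covers a whole hairpin, with no split between its 5′ and 3′ arms. CAST alleles that differ from mm10 may have lost reads, which was not tested.

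Own-strand counts were used throughout. The 4 lines that name no gene stayed out of library sizes. They held, in mouse 2 and mouse 1, 27.3% and 32.1% of reads as unmapped, 37.2% and 34.6% at several places and 5.63% and 6.1% in no gene, of 6253481 and 7082096 reads. Ratios of mouse 2 over mouse 1 used TMM factors from edgeR 4.0.16 (1.04 and 0.963) over genes at 10 CPM or more on average, with 95% Clopper-Pearson intervals. DESeq2 1.42.0 gave alternative size factors. Scaling was tested on simulated counts. Hairpins were folded with RNAfold 2.7.2 at 37 °C. All p-values were left out, since each mouse has 1 library and no second group exists.

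The members and lists were chosen with earlier results of these data known. The genes named were the members, the marker lists, the 2 genes on either side of Mir126a in rank, the 5 with the nearest ratio at 100 CPM or more, and opposite-strand pairs at 100 CPM or more. Mir487b, Mir146, Mirlet7b, the opposite-strand pairs below 100 CPM and the targets named were chosen after the values were seen. Of the listed markers, 3 names (Mir486b, Mir142hg and Mir146a) are not microRNA genes under that name in the tables. The gene annotated as Mir146 stayed out of the list sums.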

Additional observations from a re-analysis of the deposited data

How the results depend on the processing

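The direction of the strand split and of the difference between the mice held under the alternatives that gave a value, except that with strand ignored both genes were at 0 reads in mouse 2. Counting with strand ignored took the mean level of Mir126a to 0.278 CPM and its rank to 653, by construction, since reads over both genes are then given to neither; it gave no ratio, as mouse 2 had 0 such reads. With all mapped reads as the denominator, the mean level was 6852 per 1000000 mapped reads. The log2 ratio of Mir126a was 0.99 with total counts, 0.94 with DESeq2 size factors and 0.94 with TMM over all genes with counts, in each case under 2-fold. Leaving out either mouse gave levels from 11276 to 22380 CPM and ranks from 11 to 18. Genes at least 2-fold apart numbered 59 of 324, and 32 of 207 at 100 CPM or more, where fewer genes enter. The rank per base of hairpin was added after the data were seen. Mir126b stayed at 0 reads in all of these, and depth limits that to the floor of 3 reads. No paired analysis was possible because there is a single group.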
